A study of Mus musculus with 20 samples.

Results

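GABA-A receptors are chloride channels that open when the inhibitory transmitter GABA binds, and each channel is built from several subunits drawn from a large gene family. Which subunits a neuron makes sets where the receptor sits: some combinations cluster at synapses and pass brief currents, while others lie outside the synapse and pass a steady, or tonic, current at low ambient GABA. The alpha subunit encoded by Gabra5, best known from hippocampal pyramidal cells, and the delta subunit encoded by Gabrd, which usually joins the alpha subunit encoded by Gabra4, are the classic extrasynaptic ones. The 7 genes described here are Gabra2, Gabra3, Gabra4 and Gabra5 (alpha subunits), Gabrb1 and Gabrb2 (beta subunits) and Gabrd (delta), taken by gene symbol. All 7 were present among the 17442 genes of the frontal cortex table and the 17586 genes of the hippocampus table, of which 17148 were shared.

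The study sequenced RNA from the brains of Ncs1-/- mice (KO) and Ncs1+/+ mice (wild type, WT), on the C57Bl6/J background. The gene's product, a small neuronal protein of the EF-hand family, senses calcium. There were 5 libraries in each of 4 groups: KO hippocampus, WT hippocampus, KO frontal cortex and WT frontal cortex, 20 in all, from total RNA of flash-frozen dissected tissue. The labels used here give no age and no sex, do not say what the allele removes, and do not say whether each library came from a separate animal, and p-values therefore reflect library-to-library spread, which may in part be technical.

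Depth ran from 16.6 M to 34.6 M counts per library (M, mega; median 21.0 M), and the 7 genes together took 0.151% to 0.191% of each library. Ncs1 itself averaged 299 ± 21.6 CPM (counts scaled to a common library size, with TMM factors that even out library composition) in KO hippocampus and 440 ± 17.6 CPM in WT hippocampus, and 259 ± 3.33 CPM in KO cortex and 369 ± 18.1 CPM in WT cortex (SD, n = 5 each). In both regions every KO library lay below every WT library, with reads still counted over the gene in KO. The tissue labels held: 7 of 7 dentate granule cell markers were higher in hippocampus in both genotypes, and 7 of 8 cortical layer markers were lower. The cortex libraries also carried striatal neuron RNA, with 9 of 9 markers higher in cortex than in hippocampus and none at 0; their summed level was 170 to 223 CPM in KO hippocampus, 172 to 209 CPM in WT hippocampus, 911 to 1643 CPM in KO cortex and 812 to 1395 CPM in WT cortex. Choroid plexus markers, all detected, summed to 33.2 to 3583 CPM in KO hippocampus, 28.0 to 2320 CPM in WT hippocampus, 11.5 to 254 CPM in KO cortex and 6.04 to 15.1 CPM in WT cortex. By the library names the cortex and hippocampus libraries carry different lane codes, so region and lane cannot be told apart.

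Among the 7 subunits the make-up of the 2 regions differed. Levels of different genes were compared per kilobase of exon (CPM per kb), and each subunit's share is its part of the 7-gene sum on that scale. Gabra5 made up 26.7% ± 2.09 in KO hippocampus and 27.3% ± 1.90 in WT hippocampus, against 7.36% ± 0.268 in KO cortex and 7.42% ± 0.677 in WT cortex (SD, n = 5 each). Gabrd took 1.86% ± 0.311 in KO hippocampus and 2.04% ± 0.487 in WT hippocampus, against 6.20% ± 0.307 in KO cortex and 6.51% ± 0.784 in WT cortex. The 2 tonic subunits thus ran in opposite directions between the regions. Their summed share was 28.6% ± 2.14 in KO hippocampus, 29.3% ± 1.86 in WT hippocampus, 13.6% ± 0.475 in KO cortex and 13.9% ± 0.941 in WT cortex, and nearly all of it in hippocampus was Gabra5. On the per-kilobase scale Gabra5 exceeded Gabrd 14.6 ± 2.53 times in KO hippocampus and 14.02 ± 3.29 times in WT hippocampus, against 1.19 ± 0.0596 times in KO cortex and 1.15 ± 0.182 times in WT cortex. In 4 of 4 groups Gabrd had the lowest mean level of the 7 on this scale. In cortex, that place and the ratio of Gabra5 to Gabrd depend on the length used. The exons of Gabrd cover 2875 bp, but its longest coding transcript has only 1921 bp, and by that length Gabrd was not the lowest in cortex.

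**Figure D1:**
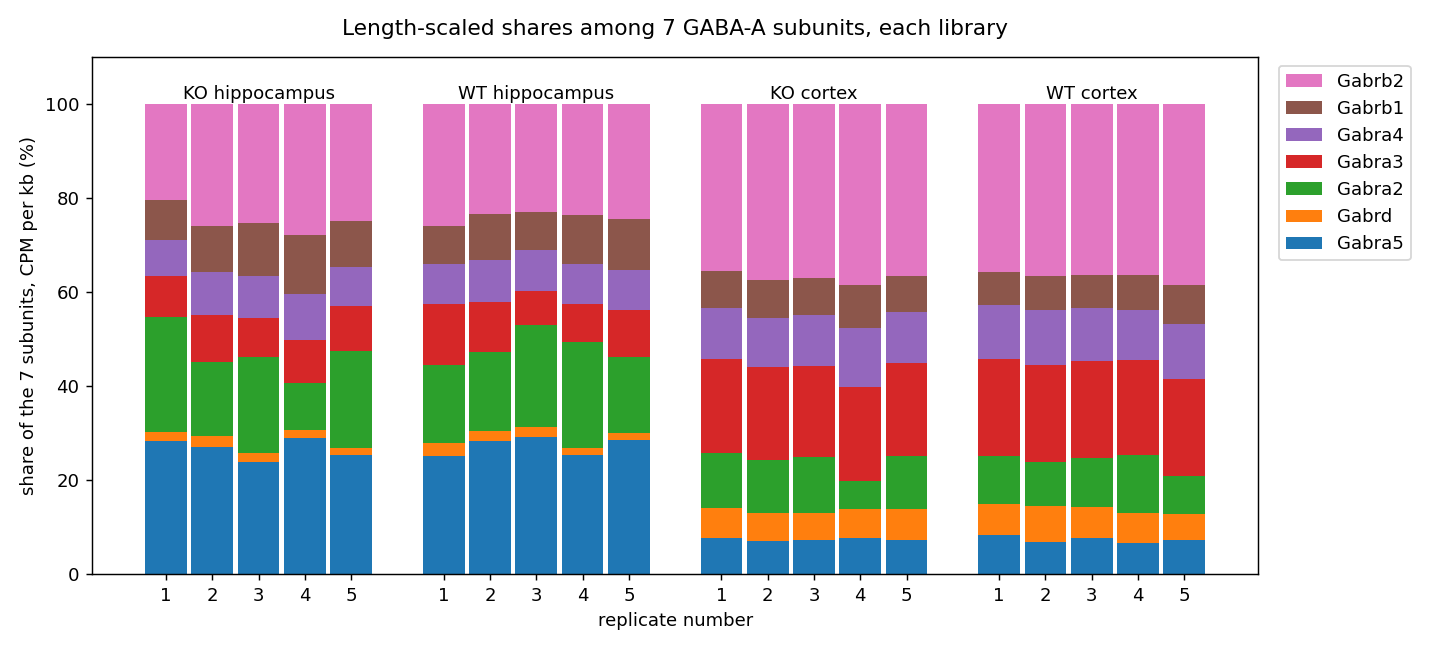
Stacked bars give, for each library, the share (%) of each subunit in the sum of the 7 on the CPM per kb scale, with Gabra5 and Gabrd at the bottom; groups run KO hippocampus, WT hippocampus, KO cortex, WT cortex. The Gabra5 band averages 26.7% and 27.3% in the hippocampus groups and 7.36% and 7.42% in the cortex groups, while the Gabrb2 band is the tallest in every cortex library.

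The order of the subunits by level also differed. In hippocampus Gabra5 led, at 72.3 CPM per kb in KO and 75.1 in WT, with Gabrb2 next at 67.5 in KO and 66.1 in WT, but the libraries of these 2 genes overlapped. Gabra2 came next at 50.5 in KO and 51.8 in WT, overlapping Gabrb2 in both, and Gabrb1, Gabra3 and Gabra4 lay between 23.6 and 28.1 with overlapping ranges, which the lowest KO library of Gabra2 also reached. Gabrd closed the list at 5.05 CPM per kb in KO and 5.56 in WT, clear of every other subunit. In cortex Gabrb2 led without overlap at 98.6 in KO and 97.4 in WT, and Gabra3 was second without overlap at 52.6 in KO and 54.5 in WT. Gabra4 at 29.7 and 29.9 overlapped Gabra2 at 27.9 and 26.8, Gabra5 at 19.6 and 19.7 overlapped Gabrb1 at 21.5 and 19.7, and Gabrd had 16.5 and 17.3 CPM per kb (KO, then WT, in each pair). In WT cortex the ranges of neighbouring genes from Gabra4 down to Gabrd all overlapped. In KO cortex Gabrd (15.4 to 17.7) lay below the other subunits except Gabra2, whose replicate 4 had 15.1 CPM per kb. The place of Gabrd in cortex depends on the length used, as given above. The first place in hippocampus depends on the length used: per kilobase of the longest transcript, Gabrb2 had 108 in KO and 105 in WT, and Gabra5 80.5 in KO and 83.6 in WT. By that length every hippocampus library of Gabrb2 lay above those of Gabra5 and Gabra2 in its genotype. Overlaps among the lower subunits also depend on the length used.

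**Figure D2:**
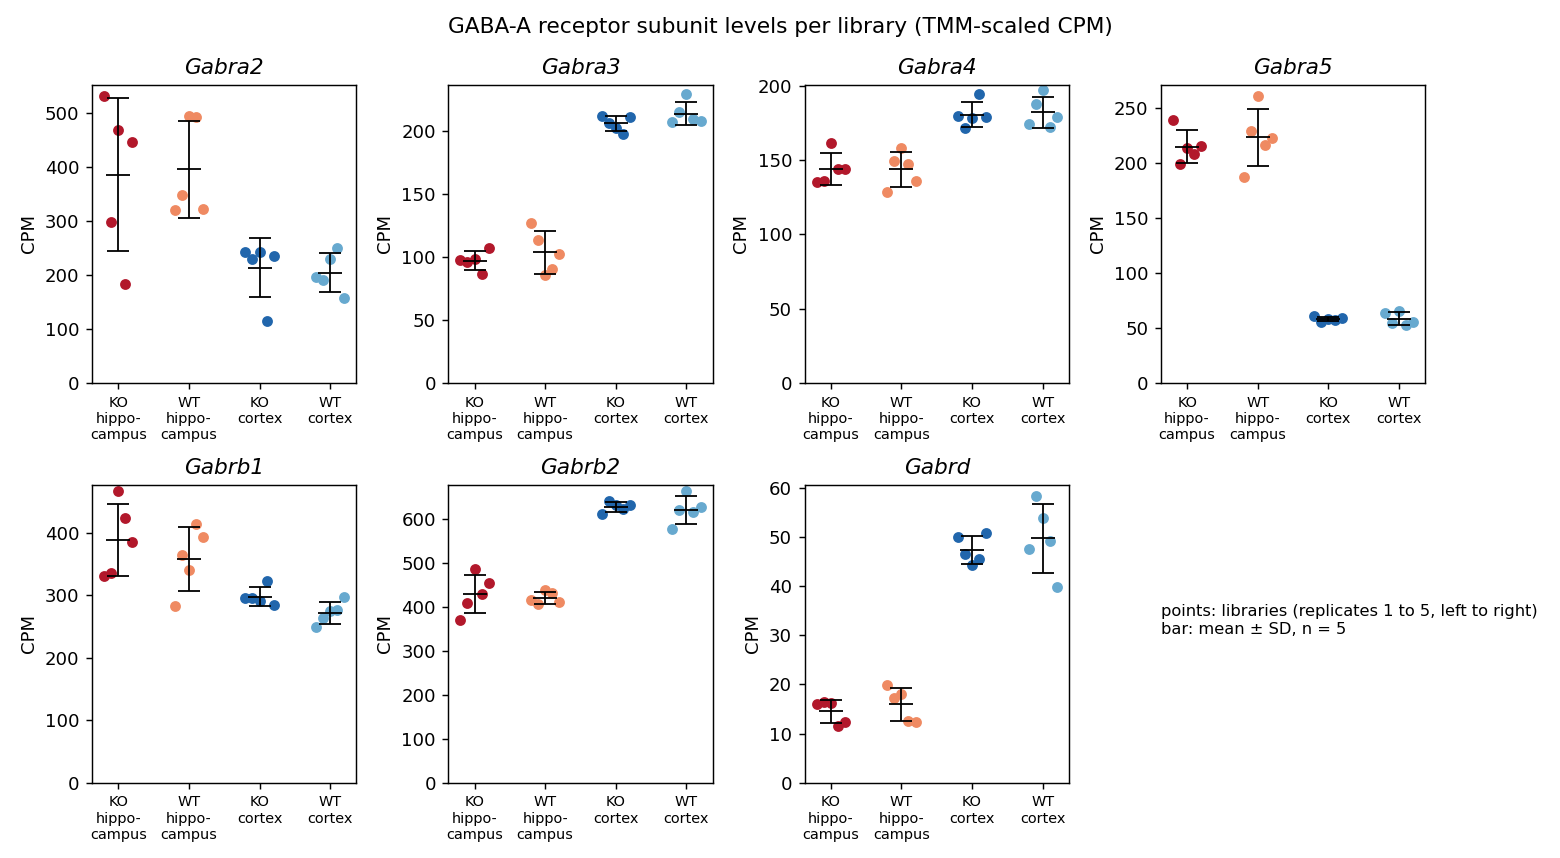
Each panel shows 1 subunit, with CPM on the vertical axis from 0 and the 4 groups on the horizontal axis; points are libraries and bars give the mean ± SD (n = 5). Gabra5 and Gabrd show the widest gaps between regions, in opposite directions, and the Gabra2 libraries are the most spread, from 183 to 532 CPM in KO hippocampus.

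The first comparison sets hippocampus against frontal cortex within each genotype. All 7 subunits passed an adjusted p of 0.05 in both genotypes (edgeR's quasi-likelihood test with Benjamini-Hochberg adjustment over all genes): Gabra2, Gabra5 and Gabrb1 were higher in hippocampus, and Gabra3, Gabra4, Gabrb2 and Gabrd were lower. Such calls were common, made for 38.8% of all genes tested in KO (19.2% higher and 19.6% lower in hippocampus) and 39.5% in WT (18.8% higher and 20.7% lower). Against a fold of 1.5 rather than no change (edgeR's glmTreat), 3 of 7 passed in each genotype, Gabra3, Gabra5 and Gabrd, where 7.94% of all genes did in KO and 7.62% in WT. The median log2 difference over the 7 was -0.33 in KO and -0.36 in WT, beside 0.01 over all genes in each.

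Gabra5 (chromosome 7, 57407669 to 57510060, minus strand, mm10) was the member that differed most. Hippocampus libraries had 240, 199, 214, 208 and 215 CPM in KO and 188, 229, 261, 216 and 223 CPM in WT. Cortex libraries had 61.2, 55.6, 58.2, 57.7 and 58.7 CPM in KO and 63.3, 54.9, 65.9, 52.9 and 55.9 CPM in WT. Its 3′ end overlaps Gm9962 on the other strand by 2273 bp, a gene at 1.37 to 2.75 CPM. The lowest hippocampus library stood far above the highest cortex library. Hippocampus exceeded cortex by a log2 difference of 1.88 in KO (SE 0.05, 95% interval 1.77 to 1.99, edgeR adjusted p = 3.79e-11), a 3.68-fold higher level. In WT it was 1.92 (SE 0.09, interval 1.73 to 2.10, edgeR adjusted p = 5.13e-09), or 3.77-fold. In bulk tissue, more cells that make a transcript and more of it per cell cannot be told apart. Pyramidal neuron markers of the CA fields, the best-known site of this subunit, moved with it: 7 of 8 were higher in hippocampus in KO and 6 of 8 in WT, and their part in the result was not tested.

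Gabrd (chromosome 4, 155384979 to 155398070, minus strand) ran the other way. Hippocampus libraries had 15.9, 16.5, 16.2, 11.5 and 12.5 CPM in KO and 19.8, 17.2, 18.0, 12.6 and 12.3 CPM in WT. Cortex libraries had 50.0, 46.5, 44.4, 45.5 and 50.9 CPM in KO and 47.6, 58.3, 53.8, 49.2 and 39.8 CPM in WT. No hippocampus library reached the lowest cortex library. On the log2 scale the difference was -1.72 in KO (SE 0.10, edgeR adjusted p = 1.86e-08), a level 3.28-fold lower in hippocampus, and -1.66 in WT (SE 0.14, edgeR adjusted p = 7.82e-07), 3.16-fold lower. Dentate granule cells are a known site of delta-containing receptors, and their 7 markers summed to 575 to 875 CPM in KO hippocampus and 505 to 838 CPM in WT hippocampus, against 311 to 354 CPM in KO cortex and 311 to 359 CPM in WT cortex, the opposite direction to Gabrd. Striatal markers were higher in cortex, as Gabrd was. Without the cortex library of each genotype with the highest striatal sum, the Gabrd difference was -1.72 in KO and -1.73 in WT. The cortex libraries kept still had striatal sums of 911 to 1392 CPM in KO and 812 to 1181 CPM in WT, so this fit cannot show the striatal part. The part of either cell type in the Gabrd difference was not tested.

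Gabra4 (chromosome 5, 71569734 to 71658309, minus strand), the usual alpha partner of delta, was lower in hippocampus by far less than Gabrd. Hippocampus libraries had 135, 136, 162, 144 and 144 CPM in KO and 128, 149, 158, 147 and 136 CPM in WT. Cortex libraries had 179, 171, 178, 194 and 179 CPM in KO and 174, 188, 197, 172 and 179 CPM in WT. The regions did not overlap in either genotype. The difference was -0.33 on the log2 scale in KO (SE 0.05, edgeR adjusted p = 0.000305) and -0.36 in WT (SE 0.06, edgeR adjusted p = 0.00039). On the per-kilobase scale Gabra4 exceeded Gabrd 4.801 ± 0.897 times in KO hippocampus and 4.41 ± 0.981 times in WT hippocampus, against 1.80 ± 0.151 times in KO cortex and 1.75 ± 0.224 times in WT cortex. The size of this ratio depends on the length used.

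Gabra2 and Gabra3 encode alpha subunits of mostly synaptic receptors, and they split between the regions. Gabra3 (chromosome X, 72432676 to 72656920, minus strand) had 97.8, 96.2, 98.6, 86.7 and 107 CPM in KO hippocampus and 127, 114, 85.4, 90.4 and 102 CPM in WT hippocampus. It had 212, 207, 203, 198 and 211 CPM in KO cortex and 207, 215, 230, 210 and 208 CPM in WT cortex. Every hippocampus library was below every cortex library. The fitted log2 difference was -1.09 in KO (SE 0.05, edgeR adjusted p = 3.55e-09) and -1.06 in WT (SE 0.09, edgeR adjusted p = 1.49e-06). The per-kilobase ratio of Gabra5 to Gabra3 was 2.93 ± 0.263 in KO hippocampus and 2.93 ± 0.759 in WT hippocampus, against 0.373 ± 0.0119 in KO cortex and 0.361 ± 0.0298 in WT cortex, so the leading gene of this alpha pair changed between regions.

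Gabra2 (chromosome 5, 70958392 to 71095850, minus strand) was higher in hippocampus with the widest error of the 7. Its hippocampus libraries had 532, 298, 470, 183 and 447 CPM in KO and 320, 349, 496, 493 and 323 CPM in WT. Its cortex libraries had 243, 230, 243, 116 and 236 CPM in KO and 196, 190, 229, 251 and 158 CPM in WT. In WT the regions did not overlap, whereas in KO replicate 4 of hippocampus fell inside the cortex range. The log2 difference was 0.85 in KO (SE 0.26, interval 0.28 to 1.42, edgeR adjusted p = 0.0210) and 0.93 in WT (SE 0.15, interval 0.61 to 1.26, edgeR adjusted p = 0.000284). Without the hippocampus libraries richest in Ttr, a choroid plexus transcript, the KO value was 1.17. The KO libraries left out there, replicates 2 and 4, were also the lowest in Gabra2, so a rise had to follow. Without KO cortex replicate 4, which had the highest striatal sum and the lowest Gabra2, the KO value was 0.70 (edgeR adjusted p = 0.0400).

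Promoter sequence is shown for Gabra5 and Gabra3, the alpha genes with the largest difference in each direction. Each runs 5′ to 3′ from 250 bases before to 50 bases after the RefSeq start in GRCm38.p6, at chr7:57510010-57510309 and chrX:72656870-72657169, both on the minus strand. Capitals mark TATAAA, the TATA box. They also mark GGGCGG, a GC box of the Sp1 type, and both motifs were searched on both strands.
Gabra5: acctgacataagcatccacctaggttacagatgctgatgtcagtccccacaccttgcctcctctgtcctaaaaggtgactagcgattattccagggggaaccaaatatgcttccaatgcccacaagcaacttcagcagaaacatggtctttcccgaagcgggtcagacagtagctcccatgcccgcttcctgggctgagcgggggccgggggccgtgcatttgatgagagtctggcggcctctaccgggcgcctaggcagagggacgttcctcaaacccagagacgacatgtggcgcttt
Gabra3: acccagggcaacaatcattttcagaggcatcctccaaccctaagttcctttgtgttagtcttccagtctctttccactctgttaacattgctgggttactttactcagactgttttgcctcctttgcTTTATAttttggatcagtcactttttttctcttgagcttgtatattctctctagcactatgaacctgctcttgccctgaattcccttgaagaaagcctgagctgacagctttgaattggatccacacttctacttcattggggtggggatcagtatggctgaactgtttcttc
The Gabra5 window was 56.7% G or C, and neither motif was found in it. The Gabra3 window was 43.0% G or C, against a median of 52.7% over 32851 promoters, and held 1 TATAAA on the opposite strand. Among all promoters 13.6% held TATAAA and 35.7% held GGGCGG. The E-box CANNTG (not in capitals) occurred 3 times in the Gabra5 window and not in that of Gabra3, and in 72.3% of all promoters.

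The 2 beta genes, whose products line the GABA-binding interface with the alpha subunits, also moved apart. Gabrb2 (chromosome 11, 42419707 to 42632592, plus strand) had 371, 408, 486, 428 and 453 CPM in KO hippocampus and 416, 407, 438, 431 and 411 CPM in WT hippocampus. It had 610, 639, 631, 623 and 632 CPM in KO cortex and 576, 620, 662, 614 and 625 CPM in WT cortex. The regions did not overlap, and the cortex libraries of each group lay close together. The log2 difference was -0.55 in KO (SE 0.06, edgeR adjusted p = 9.49e-06) and -0.58 in WT (SE 0.04, edgeR adjusted p = 3.61e-07).

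Gabrb1 (chromosome 5, 71657921 to 72149573, plus strand) was higher in hippocampus. Its hippocampus libraries had 331, 335, 466, 423 and 385 CPM in KO and 282, 364, 341, 414 and 394 CPM in WT. Its cortex libraries had 296, 295, 291, 323 and 284 CPM in KO and 250, 263, 275, 276 and 297 CPM in WT. The regions were separate in KO and overlapped through 1 hippocampus library in WT. The log2 difference was 0.38 in KO (SE 0.09, edgeR adjusted p = 0.00342) and 0.38 in WT (SE 0.09, edgeR adjusted p = 0.00385). The per-kilobase ratio of Gabrb2 to Gabrb1 was 2.42 ± 0.189 in KO hippocampus and 2.59 ± 0.405 in WT hippocampus, against 4.59 ± 0.256 in KO cortex and 4.96 ± 0.261 in WT cortex. The size of these ratios depends on the length used, though their relative change between regions does not. Per kilobase of the longest transcript, Gabrb2 had 108 and Gabrb1 28.3 in KO hippocampus, and 157 and 21.7 in KO cortex. Counting over the 7 genes, regions failed to overlap for 6 in each genotype, beside 29.8% of all genes in KO and 29.5% in WT.

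Gabrb1 and Gabra4 start head to head, and their gene models overlap by 388 bp on opposite strands, so reads there cannot be assigned unless counting used strand, and the strand setting was not stated in the labels or headers. The 2 genes nonetheless went opposite ways between regions. Their promoter windows lie at chr5:71657671-71657970 on the plus strand for Gabrb1 and chr5:71658259-71658558 on the minus strand for Gabra4, with capitals as above.
Gabrb1: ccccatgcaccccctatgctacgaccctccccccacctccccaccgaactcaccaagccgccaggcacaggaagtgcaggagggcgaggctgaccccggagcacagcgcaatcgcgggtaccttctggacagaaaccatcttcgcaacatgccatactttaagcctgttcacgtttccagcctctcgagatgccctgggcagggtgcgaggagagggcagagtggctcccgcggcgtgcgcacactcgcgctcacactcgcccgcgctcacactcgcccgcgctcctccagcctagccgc
Gabra4: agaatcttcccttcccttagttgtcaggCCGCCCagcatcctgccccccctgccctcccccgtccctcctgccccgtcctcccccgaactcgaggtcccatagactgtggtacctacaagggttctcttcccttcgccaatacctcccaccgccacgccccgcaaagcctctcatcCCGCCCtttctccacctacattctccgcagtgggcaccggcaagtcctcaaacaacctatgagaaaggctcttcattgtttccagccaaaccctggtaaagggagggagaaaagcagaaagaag
The Gabra4 window was 58.7% G or C with 2 GGGCGG, both on the opposite strand, and no CANNTG. The Gabrb1 window was 66.0% G or C and matched none of these motifs.

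**Figure D3:**
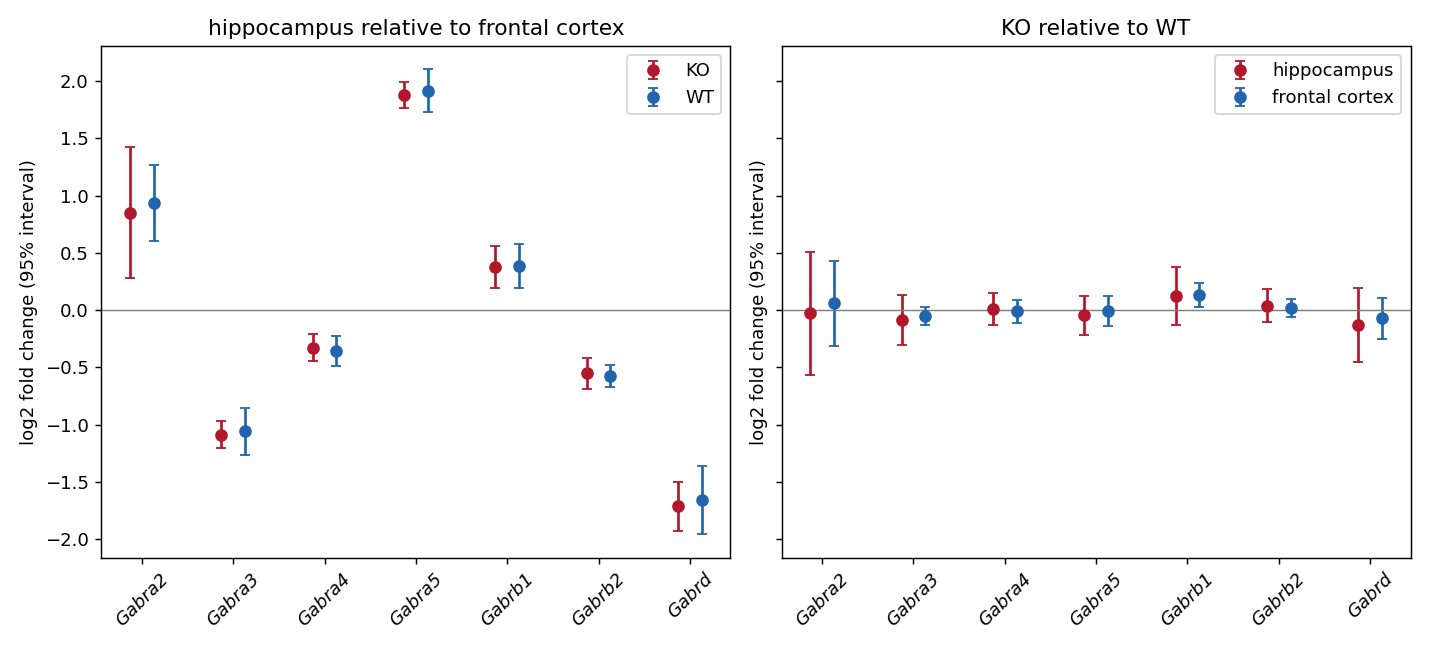
Log2 fold changes (vertical axis) with 95% intervals from edgeR are drawn for each subunit (horizontal axis), on the left hippocampus relative to frontal cortex in KO and in WT, on the right KO relative to WT in hippocampus and in cortex. On the left the points run from -1.72 for Gabrd to 1.92 for Gabra5 and the 2 genotypes lie side by side, while on the right every point is between -0.13 and 0.13.

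The second comparison sets KO against WT, to ask whether loss of Ncs1 came with a change in subunit make-up. In hippocampus edgeR called 0 of 7 subunits, with 0 at an unadjusted p under 0.05, and DESeq2 and limma-voom also called 0. Of all genes tested there, 0.0266% were called and 3.78% had an unadjusted p under 0.05. In frontal cortex edgeR, DESeq2 and limma-voom each called 0 of 7 as well, with 1 at an unadjusted p under 0.05 in edgeR, against 0.0270% of all genes called and 14.8% unadjusted. KO and WT libraries overlapped for 7 of 7 subunits in both regions, where 0.447% of all genes in hippocampus and 2.17% in cortex did not overlap.

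For the tonic subunits the intervals bounded the change more tightly for Gabra5 than for Gabrd. Gabra5 averaged 215 ± 15.1 CPM in KO hippocampus and 223 ± 26.2 CPM in WT hippocampus (SD, n = 5 each), a log2 difference of -0.05 with a 95% interval of -0.21 to 0.12. It averaged 58.3 ± 2.01 CPM in KO cortex and 58.5 ± 5.68 CPM in WT cortex, a difference of -0.01 with an interval of -0.14 to 0.12. Gabrd averaged 14.5 ± 2.37 CPM in KO hippocampus and 16.0 ± 3.36 CPM in WT hippocampus, a difference of -0.13 with an interval of -0.45 to 0.20. In cortex it averaged 47.5 ± 2.86 CPM in KO and 49.8 ± 6.96 CPM in WT, a difference of -0.07 with an interval of -0.25 to 0.11. As a fold of KO over WT in hippocampus, the interval was 0.862 to 1.09 for Gabra5 and 0.730 to 1.15 for Gabrd, the member with the fewest counts.

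Gabrb1 came closest to a difference. It averaged 298 ± 14.9 CPM in KO cortex and 272 ± 17.5 CPM in WT cortex, and 1 KO library exceeded every WT library. The log2 difference was 0.13 (SE 0.05, interval 0.03 to 0.24), with an edgeR p of 0.0164 that became 0.266 after adjustment. Across the alternatives the adjusted p ran from 0.0566 to 0.741, and the difference was 0.04 once the trend of fold change with exonic length was removed. In hippocampus Gabrb1 averaged 388 ± 57.7 CPM in KO and 359 ± 51.3 CPM in WT, a difference of 0.12 with an interval of -0.13 to 0.38.

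The other members lay close to 0. Gabra3 differed by -0.08 (interval -0.30 to 0.13) in hippocampus and -0.05 (interval -0.13 to 0.03) in cortex. Gabra4 differed by 0.01 (interval -0.13 to 0.15) in hippocampus and -0.01 (interval -0.11 to 0.09) in cortex. Gabrb2 differed by 0.04 (interval -0.11 to 0.18) in hippocampus and 0.02 (interval -0.06 to 0.10) in cortex. Gabra2 was the least certain, at -0.03 (interval -0.57 to 0.51) in hippocampus and 0.06 (interval -0.31 to 0.43) in cortex. Its value hung on few libraries, being 0.22 in cortex without KO replicate 4 and 0.38 in hippocampus without the 3 libraries richest in Ttr.

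The third comparison asks whether the KO effect differed between regions (hippocampus minus cortex), fitted over the 20 libraries. With edgeR 0 of 7 subunits were called and 0 had an unadjusted p under 0.05, beside 0% of 15310 genes called and 1.40% unadjusted; DESeq2 and limma-voom also called 0 of 7. The members' estimates ran from -0.10 for Gabra2 to 0.01 for Gabra4, each with an edgeR adjusted p of 0.9998. The intervals were -0.26 to 0.17 for Gabra5 and -0.44 to 0.31 for Gabrd.

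Within groups Gabra2 was far more variable than the other 6 subunits. Its pooled SD between libraries of a group was 0.44 on the log2 scale, and 0.769% of the 9885 genes averaging 10 CPM or more had a larger one. The SDs of Gabrd (0.23), Gabrb1 (0.16), Gabra3 (0.14), Gabra5 (0.12), Gabra4 (0.09) and Gabrb2 (0.09) were smaller, as were those of its chromosome 5 neighbours Gabrg1 (0.16) and Commd8 (0.08). The spread was shared by libraries of the same genotype and number in the 2 regions. KO replicate 4 was the lowest KO library in both, at 183 CPM in hippocampus and 116 CPM in cortex, and WT replicates 3 and 4 were the highest WT libraries in both. In 9 of 10 same-numbered pairs the hippocampus and cortex libraries deviated from their group means in the same direction, the exception being KO number 2. For the other members this held in 5 to 7 of 10 pairs, and 4.20% of all genes had at least 9.

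**Figure D4:**
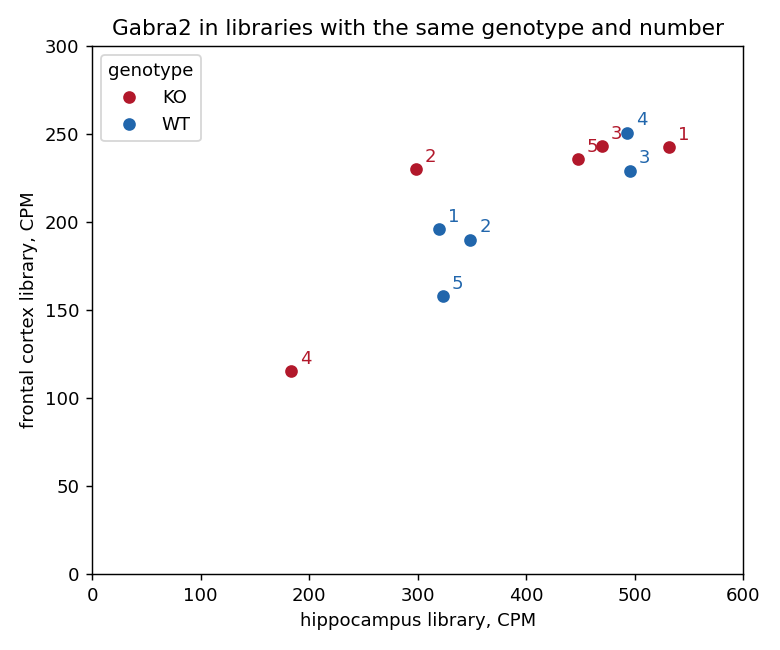
Each point is a pair of libraries with the same genotype and replicate number (printed beside it), with Gabra2 CPM in hippocampus on the horizontal axis and in frontal cortex on the vertical axis, both from 0. KO number 4 is lowest on both axes, at 183 and 116 CPM, and the pairs high in hippocampus are mostly high in cortex.

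Carry-over of other tissue did not line up with Gabra2 in a single way. KO cortex replicate 4, the lowest, had the highest striatal sum (1643 CPM), as did the lowest WT cortex library, replicate 5 (1395 CPM). In hippocampus the 2 lowest KO libraries, replicates 4 and 2, had 318 and 3106 CPM of Ttr, while WT replicate 4, with 1994 CPM of Ttr, was high in Gabra2 at 493 CPM. The part of these levels in the spread was not tested.

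Other genes of GABA signalling passed the test between regions and not between genotypes. The regional counts of the lists below stand beside the shares over all genes tested. Those were 19.2% higher and 19.6% lower in hippocampus in KO, and 18.8% higher and 20.7% lower in WT. Of 9 other GABA-A subunit genes looked up, 4 were expressed enough to test in KO and 3 in WT, and 3 were lower in hippocampus in each genotype. Gabrg3, a gamma subunit, differed by -0.74 (SE 0.06) in KO and -0.65 (SE 0.09) in WT, and Gabrg1, another gamma subunit, by -0.47 (SE 0.08) in KO and -0.43 (SE 0.10) in WT. The third was Gabrq, the theta subunit, at under 4 CPM.

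Genes of GABA synthesis, transport and breakdown were lower in hippocampus for 4 of 8 in each genotype and higher for 0. Slc32a1, which loads GABA into vesicles, differed by -0.71 (SE 0.09) in KO and -0.69 (SE 0.09) in WT. Gad2, a GABA-making enzyme, differed by -0.56 (SE 0.08) in KO and -0.53 (SE 0.10) in WT, and the related Gad1 by -0.21 (SE 0.05) in KO and -0.23 (SE 0.06) in WT. Of 10 interneuron markers 7 were lower in each genotype, but that list includes Slc32a1, Gad1 and Gad2 themselves and is not a separate result. The markers summed to 1053 ± 37.0 CPM in KO hippocampus and 1079 ± 36.2 CPM in WT hippocampus, against 1343 ± 65.1 CPM in KO cortex and 1358 ± 97.2 CPM in WT cortex. Among chloride transporters, which set the gradient that GABA-A receptors use, Slc12a5 was lower in hippocampus at -0.42 (SE 0.05) in KO and -0.45 (SE 0.04) in WT, and Slc12a7 was higher.

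Scaffold, anchoring and assembly genes went both ways, 7 of 18 higher and 5 lower in KO and 7 of 18 higher and 7 lower in WT. Over all genes, 38.8% were called in either direction in KO and 39.5% in WT, and lists this small allow no reading of their counts against those shares. Slitrk3, an adhesion protein of inhibitory synapses, was higher by 0.52 (SE 0.07) in KO and 0.51 (SE 0.07) in WT, and Plcl2, which binds receptor subunits, was lower at -0.39 (SE 0.06) in KO and -0.43 (SE 0.06) in WT. For the metabotropic GABA-B receptor complex 2 of 6 were higher and 3 lower in each genotype, led by the auxiliary subunits Kctd12 at 1.12 (SE 0.07) in KO and 1.17 (SE 0.08) in WT and Kctd16 at -0.93 (SE 0.10) in KO and -0.96 (SE 0.08) in WT.

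Between KO and WT edgeR called 0 genes of these 5 lists in either region. The smallest unadjusted p in hippocampus was that of Slc6a11, a GABA transporter of astrocytes, at -0.09 (SE 0.04), with an edgeR p of 0.0465 and an adjusted p of 0.991. In cortex it was that of Slc12a2, the chloride importer, at 0.16 (SE 0.05), with an edgeR p of 0.00673 and an adjusted p of 0.235. The leading genes of the other lists differed by -0.10 (Insyn1), 0.20 (Slc12a2), 0.19 (Kctd16) and 0.03 (Gabrg3) in hippocampus and by -0.14 (Insyn1), 0.16 (Kctd16), 0.13 (Gabrg3) and 0.05 (Aldh5a1) in cortex, none of them called.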

How the data were processed

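RNA-seq of 20 libraries was used. Both deposited tables hold expected counts, one value per gene and library, not all whole (22.6% to 27.3% of values per library, tolerance 0.001); per the submitters' processing notes STAR 2.7.3a and Partek were used with mm10. The annotation, strand setting and filters were not given in the sources used here. Values were rounded and fitted with edgeR 4.0.16 in R 4.3.3 (filterByExpr, TMM, quasi-likelihood test, Benjamini-Hochberg at 0.05), each comparison on its own groups and the interaction on all 20 libraries. CPM are TMM-scaled, and lengths are unions of GENCODE vM21 exons. DESeq2 1.42.0 and limma 3.58.1 (voom) served as alternatives, and scripts were tested on simulated data. Promoters come from RefSeq (GRCm38.p6). Gabrd had no promoter entry, and the nearest Gabrb2 entry started 733 bp from the deposited gene start. Members, lists and naming rules were chosen with earlier results of these data known: the pathway genes named are those with the smallest p in each list (at most 4 past the threshold, or 1 where none passed). Some subunits are not reported here, so shares refer to the 7 named. No libraries were duplicates (lowest chi-square per degree of freedom 3.44). Same-numbered WT hippocampus and WT cortex libraries had correlated deviations (0.137 to 0.633), but WT hippocampus number 4 was closest to WT cortex number 5. Whether a number marks 1 animal was not stated, and the main fits did not use the numbers. Intervals cover the spread between libraries only.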

Additional observations from a re-analysis of the deposited data

Results flagged for a closer look

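Of 28 sets of 5 libraries (7 subunits in 4 groups), 1 held a library far from the others: Gabra2 in KO cortex replicate 4, at 116 CPM, where the other 4 KO cortex libraries had 230 to 243 CPM. The gap to the nearest library was 0.898 of the whole range, above Dixon's 95% critical value of 0.71. Chance flags about 1 in 20 such sets. The hippocampus library of the same genotype and number was also the lowest of its group, at 183 CPM.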

How the results depend on the processing

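The 7 regional calls in each genotype kept direction and stayed past the threshold under every other scaling, filter, tool and left-out library tried; against a fold of 1.5, 3 in KO and 3 in WT passed, of 1193 and 1131 genes. Adding the replicate block changed no member's call (Gabra5 1.88 in KO and 1.91 in WT; 0 of 7 between genotypes in both regions). Same-numbered KO hippocampus and cortex libraries had correlations of -0.241 to 0.410. Between KO and WT libraries, which cannot share an animal, they were 0.0214 to 0.418 in hippocampus and -0.145 to 0.279 in cortex. These correlations therefore do not settle whether the numbers pair any groups. The genes called between genotypes in cortex went from 4 to 169 with DESeq2, 7 with all 20 libraries in 1 fit and 54 without the most striatal libraries; those in hippocampus from 4 to 0 without the Ttr-rich libraries; the interaction from 0 to 1 with DESeq2. Leaving out 1 library each gave 4 to 563 genes in cortex (563 without WT replicate 5), 3 to 4 in hippocampus, 5122 to 5981 by region in KO, 5352 to 5786 in WT, and 0 to 1 for the interaction; the causes were not tested.

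Uncalled values changed sign. With the length trend removed, cortex Gabra5 was 0.0274 and Gabrb2 -0.0056, hippocampus Gabra4 -0.0061 and the interaction of Gabrb1 0.0042. Without Ttr-rich libraries, hippocampus Gabra2 was 0.38 and the interactions of Gabra2 and Gabrb1 0.32 and 0.0607. Leaving out 1 library each, values ran in cortex from -0.0216 to 0.22 (Gabra2), -0.0403 to 0.0183 (Gabra4), -0.0409 to 0.0401 (Gabra5) and -0.0071 to 0.0428 (Gabrb2); in hippocampus from -0.18 to 0.15 (Gabra2), -0.0364 to 0.0445 (Gabra4), -0.10 to 0.0128 (Gabra5) and -0.0134 to 0.0773 (Gabrb2); and for the interaction from -0.25 to 0.0836 (Gabra2), -0.10 to 0.0449 (Gabra3), -0.0298 to 0.0511 (Gabra4), -0.10 to 0.0151 (Gabra5), -0.0924 to 0.0384 (Gabrb1), -0.0365 to 0.0608 (Gabrb2) and -0.15 to 0.0241 (Gabrd). The summed share of Gabra5 and Gabrd was 24.7% in KO hippocampus, 25.4% in WT hippocampus, 11.1% in KO cortex and 11.4% in WT cortex by longest transcript, and 25.2%, 25.9% and 12.8% in the first 3 by longest coding transcript (added after seeing the data). Depth limits Gabrd most, the subunit with the fewest counts.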

Other observations

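Over the 20 libraries the genes whose log2 CPM followed each subunit most closely, among 9878 searched, were these, as a description of points that share region and lane. Gabra5 ran with Galnt17, St6galnac5 and Cabp7 (Pearson r of 0.996, 0.996 and 0.995). Gabrd ran with Abcb9, Lamp5 and Mgat5b (r of 0.988, 0.984 and 0.983), and Gabra3 with Rasgef1b, Car10 and Rims3 (r of 0.994, 0.993 and 0.993). Gabrb2 followed Rasgrf2, Myh10 and Il1rapl1 (r of 0.991, 0.990 and 0.989), Gabra4 followed Tlk1, AI593442 and Sipa1l1 (r of 0.962, 0.948 and 0.947), and Gabrb1 followed Frmd4a, Soga1 and Erc1 (r of 0.968, 0.965 and 0.961). Gabra2 had the loosest neighbours, Eif4b, Tor1a and Trpc4ap (r of 0.870, 0.869 and 0.865).

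Group means were then removed, a step chosen after the spread of Gabra2 was seen. Of the 9878 genes searched, the closest to Gabra2 over the 20 libraries was Zdhhc3 (r of 0.84). Next came Tor1a (r of 0.73), Trpc4ap (r of 0.73), Ap3s2 (r of 0.73) and Gtdc1 (r of 0.72). Zdhhc3 encodes a palmitoyltransferase known to act on GABA-A receptor subunits, and a link between the 2 genes was not tested. Zdhhc3 averaged 86.4 ± 4.29 CPM in KO hippocampus, 85.6 ± 2.61 CPM in WT hippocampus, 91.0 ± 2.12 CPM in KO cortex and 93.8 ± 3.41 CPM in WT cortex, and its lowest KO library was replicate 4 in both regions, as for Gabra2. The 5 most opposed genes were Pdia6 (r of -0.77), Mettl3 (r of -0.76), Ly6a (r of -0.76), Xbp1 (r of -0.74) and Hyou1 (r of -0.73). These are correlations in 20 libraries of 10 genotype and number pairs, given with no test.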
